A study of Mus musculus with 15 samples.

Results

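The clock output genes are 9 genes whose transcripts are driven by, or feed back on, the circadian clock: Dbp, Tef, Hlf, Nfil3, Usp2, Ciart, Bhlhe40, Noct and Wee1. They were measured in Abcb5 mutant and wild-type mice on one-colour Illumina bead arrays, and the members were all probes that the platform annotation assigned to these symbols, 14 of 25697 probes (9 of 16593 named genes). Abcb5 encodes an ATP-binding cassette transporter. The arrays held 3 livers and 4 hearts from homozygous ABCB5 mutant mice, and 4 livers and 4 hearts from wild-type mice. All groups were male, 17 weeks old and of the strain C57BL/6J-Tyr. The 15 arrays covered 8 mice. Both tissues were available from 7 mice, and from mutant mouse 4 only the heart. The kind of mutation and the hour at which tissues were taken were not given in the sources used here. Of the probes, 0 were named Abcb5, so the genotype labels were not checked by the mutated gene.

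In the clock, CLOCK and BMAL1 bind E-box sequences and switch on the Per and Cry genes, whose proteins shut them off again. The same pair drives output genes. Dbp, Tef and Hlf encode the PAR bZIP transcription factors, which activate genes through D-box sequences, and Nfil3 encodes a repressor of the same sequences. Nfil3 itself is repressed by the REV-ERB receptors, so its transcript normally peaks when that of Dbp is low. In mouse liver the PAR bZIP factors are known for rhythmic control of drug and heme metabolism. Ciart (also called Chrono) and Bhlhe40 (Dec1) encode repressors of CLOCK and BMAL1. Usp2 encodes a deubiquitinase, Noct a clock-controlled phosphatase of the nocturnin family, and Wee1 a kinase that restrains entry into mitosis.

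The promoters of Ciart and Tef are shown because these were the members with a perfect E-box at the start of the gene, and that of Nfil3 because it held the core letters bound by REV-ERB and ROR receptors. Sequences were taken from RefSeq (build GRCm38.p6), 250 bases before to 50 bases after a start site, and 7 of the 9 genes had 8 such windows (Bhlhe40 and Wee1 had none). Searched on both strands were CACGTG (E-box), CACGTT (E-box variant), TTATGTAA and TTACGTAA (D-box forms) and AGGTCA (receptor core site), none of which overlapped in these windows. Capitals mark the matches, and the strand of the gene is printed 5' to 3'.
Ciart, chr3:95882179-95882478, minus strand: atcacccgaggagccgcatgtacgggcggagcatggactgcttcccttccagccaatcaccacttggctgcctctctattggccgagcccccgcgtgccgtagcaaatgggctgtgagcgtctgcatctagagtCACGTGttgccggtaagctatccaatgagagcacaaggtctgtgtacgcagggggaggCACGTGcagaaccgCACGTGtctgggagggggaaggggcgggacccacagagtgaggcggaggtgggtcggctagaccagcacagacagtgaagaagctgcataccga
Tef, first start, chr15:81802423-81802722, plus strand: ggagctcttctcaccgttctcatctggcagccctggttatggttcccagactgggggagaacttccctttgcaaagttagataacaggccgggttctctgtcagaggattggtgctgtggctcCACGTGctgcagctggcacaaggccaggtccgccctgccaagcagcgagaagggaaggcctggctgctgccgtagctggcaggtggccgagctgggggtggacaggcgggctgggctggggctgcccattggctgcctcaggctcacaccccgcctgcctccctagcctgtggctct
Tef, second start, chr15:81811164-81811463, plus strand: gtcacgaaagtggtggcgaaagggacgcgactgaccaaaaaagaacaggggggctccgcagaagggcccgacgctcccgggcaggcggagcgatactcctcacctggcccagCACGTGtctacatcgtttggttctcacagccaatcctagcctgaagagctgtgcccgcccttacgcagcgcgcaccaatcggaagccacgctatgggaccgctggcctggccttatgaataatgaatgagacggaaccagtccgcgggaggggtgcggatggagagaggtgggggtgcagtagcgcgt
Nfil3, chr13:52980990-52981289, minus strand: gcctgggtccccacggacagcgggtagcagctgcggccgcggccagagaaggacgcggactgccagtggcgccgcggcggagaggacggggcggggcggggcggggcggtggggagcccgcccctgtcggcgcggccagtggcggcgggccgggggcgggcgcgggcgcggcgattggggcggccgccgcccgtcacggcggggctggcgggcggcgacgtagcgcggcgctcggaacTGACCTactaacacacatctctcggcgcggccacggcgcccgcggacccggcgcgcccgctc
The Ciart window held CACGTG at 3 places, beginning 116, 58 and 44 bases before the start. Each Tef window held it once, 127 and 138 bases before its start. Of 32851 such windows in the RefSeq table, 7.15% held CACGTG and 29 (0.0883%) held it 3 times or more. The Nfil3 window held AGGTCA on its other strand 12 bases before the start, as 16.3% of all windows held it on either strand. None of these letters were found in the windows of Dbp, Usp2, Hlf and Noct. A match describes the sequence and is not evidence of binding.

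Intensities below are the authors' deposited linear values, which were scaled separately in the 2 tissues and are compared only within a tissue. Background, the most common low value, was 109.8 to 109.9 in liver and -2.41 to -2.39 in heart. A probe counted as above background at 114.3 and more in liver, and at 1.17 to 1.20 and more in heart. Changes are differences of log2(background-corrected intensity + 16), mutant minus wild type, tested with limma over all probes above background on at least 3 arrays of the tissue. The added 16 shrinks the changes of dim probes. The liver arrays carried the hepatocyte transcripts Apoa1 (13450.5 to 16187) and Ttr (10154.8 to 13239.8). Of the 5 hepatocyte markers listed, Serpina1a was also bright (2017.6 to 3686.7). Alb was dim (124.3 to 131.2), and Tat was above background on 0 liver arrays (104.4 to 110.0). The heart arrays carried the cardiomyocyte transcripts Myl2 (22133.9 to 47565) and Myh6 (16897 to 38631), which were above background on 1 and 0 of 7 liver arrays. Of the members, 10 probes of 8 genes were tested in liver and 13 probes of 8 genes in heart. The exception in both tissues was Wee1, whose single probe lay between 105 and 116 in liver and between -5.58 and 4.97 in heart and was above background on 1 array in each.

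In the mutant livers Usp2 and Ciart rose, and Dbp, Tef and Noct stood higher by value without passing the test over all probes. Of the 10 member probes 3 passed (adjusted p below 0.05), where 0.100% of 11958 probes passed. All 3 were higher and 0 lower, against 0.0669% and 0.0335% of all probes. Among them, Ciart ILMN_3102736 entered the test only through the mutant livers. The genotypes were fully apart for 6 of the 10 (5 higher and 1 lower), against 11.2% of all probes. The median change of the tested member probes was 0.94, and that of all probes -0.00.

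Dbp, a PAR bZIP activator with a strong daily rhythm in liver, had intensities of 1332, 1589.6 and 1558 in the mutant livers, against 219.7, 234, 530.5 and 665 in the wild-type livers. The groups did not overlap, and the wild-type livers fell into a dimmer and a brighter pair while the mutant livers lay close together. On the log2 scale the level was 10.45 ± 0.15 in mutant and 8.01 ± 1.12 in wild-type livers (SD, n = 3 and 4). The change of 2.44 ± 0.45 (SE) did not pass (limma adjusted p = 0.0927). Without wild-type liver 4, the brightest of its group, it was 2.82 (adjusted p = 0.0168). That liver lay nearest the mutant livers, so leaving it out favours a call. No other single omission passed, and single omissions gave 2.09 to 2.82. With no filter on dim probes the adjusted p was 0.335.

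Tef, the second PAR bZIP activator, was read by a bright probe at 247, 287 and 299 in the mutant livers, against 169, 161, 159 and 215 in the wild-type livers. Every mutant value lay above every wild-type value, and the change was 1.20 ± 0.21 (adjusted p = 0.0694). Leaving out wild-type liver 4 gave 1.40 (adjusted p = 0.00564). Leaving out mutant liver 1 gave 1.33 (adjusted p = 0.0418). These livers lay nearest the other genotype, so leaving them out favours a call. No other single omission passed, and single omissions gave 1.11 to 1.40. With no filter on dim probes the adjusted p was 0.273. The other Tef probe was above background on 2 of the 7 liver arrays and was not tested. Hlf, the third PAR bZIP member, was near background (111 to 117 in mutant and 112 to 121 in wild-type livers), above it in 1 of 3 mutant and 3 of 4 wild-type livers, and its change was -0.14 ± 0.14 (adjusted p = 0.769).

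Nfil3, the D-box repressor, ran the other way by value. It stood at 357, 348 and 423 in the mutant livers, against 822, 702, 549.9 and 435 in the wild-type livers. The groups did not overlap, although mutant liver 3 and wild-type liver 4 were close, and the change was -0.87 ± 0.23 (adjusted p = 0.198).

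Usp2 gave the smallest p of all probes tested in liver. Its brightest probe (ILMN_1240264) read 191, 199.6 and 251 in the mutant livers, against 115, 113, 117 and 120.1 in the wild-type livers. The wild-type livers were at the edge of background (3 of 4 above it), so the mutant level stood at a mean of 104 over background and the wild-type level at 6.35. Usp2 rose by 2.39 ± 0.18 (adjusted p = 0.000268), and this call held without any single array. The call was lost with no filter on dim probes (adjusted p = 0.0898). With wild-type livers so near background the size rests on the added 16: it was 1.43 with an added 50 (adjusted p = 0.00674) and 0.87 with uncorrected values (adjusted p = 0.0312), which were floored at 16 and keep the background. The other 2 Usp2 probes were above background on 0 of the 7 liver arrays.

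Ciart rose on both of its probes. ILMN_3029489 read 135, 135 and 136 in the mutant livers, against 109.8, 116, 116 and 116 in the wild-type livers, and ILMN_3102736 read 131, 137 and 128 against 111, 112, 113 and 117. All mutant values were above all wild-type values, and the probes were above background in 3 of 4 and 1 of 4 wild-type livers. The changes were 0.97 ± 0.13 (adjusted p = 0.0180) and 0.91 ± 0.14 (adjusted p = 0.0336). The second probe entered the test through the mutant livers, where it was above background on all 3, and its call is given with that limit. The mutant level was a mean of 25.6 and 22.1 over background, and the wild-type level 4.75 and 3.53. With an added 50 the changes were 0.45 (adjusted p = 0.0477) and 0.41 (adjusted p = 0.0885), and with uncorrected values 0.24 (adjusted p = 0.101) and 0.22 (adjusted p = 0.148). The first probe lost its call without mutant liver 2 (adjusted p = 0.0912), mutant liver 3 (0.0960), wild-type liver 1 (0.0685) or wild-type liver 3 (0.0505). The second lost it without these (0.146, 0.0960, 0.125 and 0.0994) and without wild-type liver 2 (0.0985).

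The other tested members did not pass in liver. Noct had 2 probes above background on all arrays, at 231, 305 and 292 in the mutant livers, against 136, 157, 168 and 261 in the wild-type livers for the brighter probe. Wild-type liver 4 alone reached the mutant range, and the changes were 1.25 ± 0.36 and 0.90 ± 0.25 (adjusted p = 0.239 and 0.223). Without wild-type liver 4 the brighter probe stood at 1.63 (adjusted p = 0.0183). No other single omission passed, and single omissions gave 0.96 to 1.63. Bhlhe40 overlapped, with 419, 432 and 502 in the mutant livers and 328, 376, 419 and 523 in the wild-type livers, and its change was 0.20 ± 0.19 (adjusted p = 0.757).

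**Figure D1:**
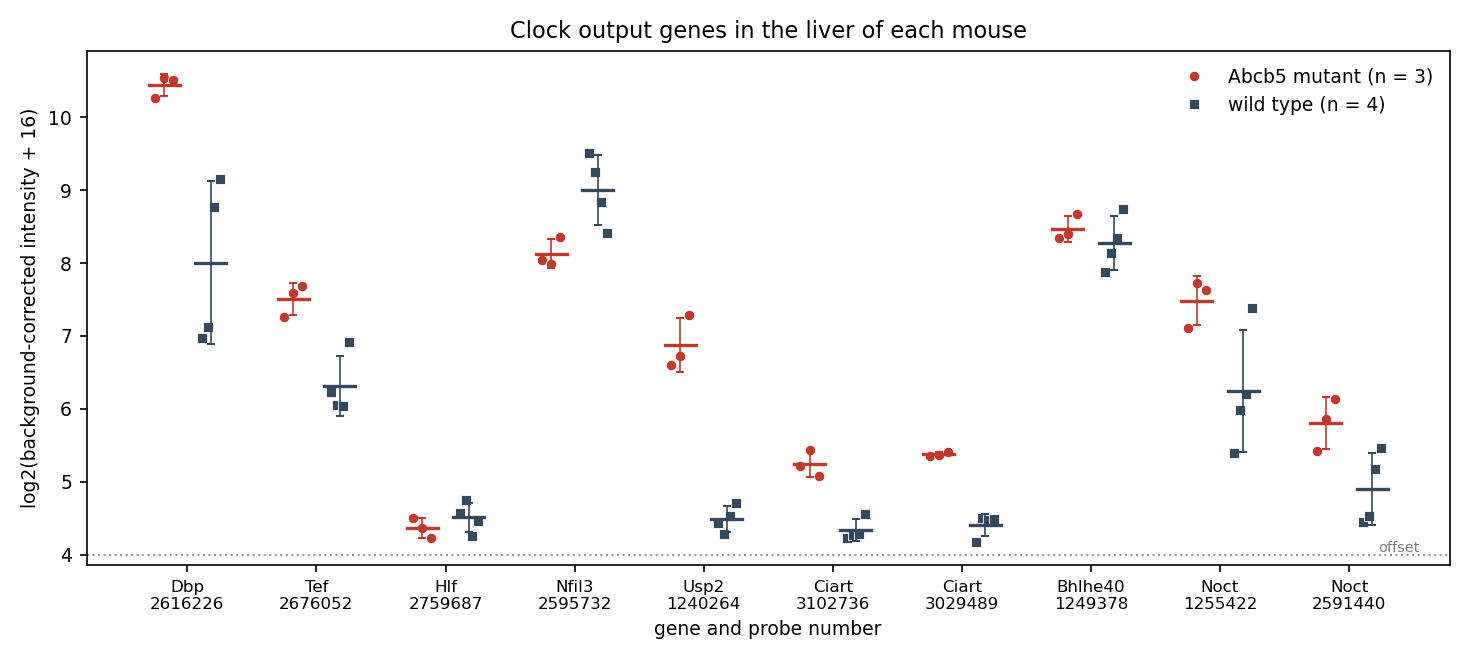
Log2 of background-corrected intensity plus 16 (vertical axis) for the 10 member probes above background in liver (horizontal axis, gene and probe number). Points are single mice, with 3 mutant livers in red left of 4 wild-type livers in dark grey, bars are means with SD, and the dotted line is the level of the added 16. The mutant livers lie together at 10.45 for Dbp while the wild-type livers spread around 8.01, and the points of Usp2 and Ciart are separated by genotype.

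In the mutant hearts Ciart, Dbp and Bhlhe40 rose and Nfil3 fell, while Usp2 and Tef, which were higher by value in the mutant livers, stood lower by value. Of the 13 member probes 5 passed, where 1.98% of 18514 probes passed. These were 4 higher and 1 lower, against 1.15% and 0.837% of all probes. The arrays did not overlap for those 5 probes, 38.5% of the 13, against 10.0% of all probes. The median change was -0.03 for the member probes and 0.01 for all probes.

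Ciart changed most among the members in heart. ILMN_3029489 read 225, 196, 242 and 231 in the mutant hearts, against 84.5, 89.0, 102 and 53.2 in the wild-type hearts. ILMN_3102736 read 256, 250.3, 296 and 237 in the mutant hearts, against 119, 134, 167 and 115 in the wild-type hearts. Neither probe overlapped between the genotypes. The changes were 1.29 ± 0.15 (2.45-fold, adjusted p = 0.000922) and 0.88 ± 0.12 (1.84-fold, adjusted p = 0.00275), and both calls held without any single array.

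Dbp read 3474, 3709, 2967 and 3848 in the mutant hearts, against 2271, 2284, 2623 and 1651 in the wild-type hearts. All mutant hearts were above all wild-type hearts, and the change was 0.67 ± 0.14 (1.59-fold, adjusted p = 0.0312). The call was lost without mutant heart 1 (adjusted p = 0.0793), 2 (0.0772) or 4 (0.0853), or wild-type heart 1 (0.0627) or 2 (0.0594). Dbp also lost it with uncorrected values (0.139) and with no filter on dim probes (0.0785). The same held in a fit of all 15 arrays (0.357) and with replicate number as a block (0.0828). Nfil3 read 167, 164, 167 and 180.0 in the mutant hearts, against 245, 233, 208 and 278 in the wild-type hearts. The mutant hearts were lower without overlap, and Nfil3 fell by 0.46 ± 0.10 on the log2 scale (1.38-fold lower, adjusted p = 0.0399). Its call was lost without any 1 of the 4 mutant hearts (adjusted p = 0.0989, 0.0880, 0.103 and 0.0646) or wild-type heart 1, 2 or 4 (0.0931, 0.0787 and 0.0751). Nfil3 also lost it with uncorrected values (0.0799), in a fit of all 15 arrays (0.176) and with replicate number as a block (0.0769).

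Bhlhe40, the repressor that also responds to many stimuli outside the clock, read 530.1, 539, 405 and 506 in the mutant hearts, against 395, 332, 309 and 265 in the wild-type hearts. Mutant heart 3 and wild-type heart 1 nearly met, and the change was 0.58 ± 0.13 (1.50-fold, adjusted p = 0.0434). The call was lost without mutant heart 1 (adjusted p = 0.117), 2 (0.105) or 4 (0.101), or wild-type heart 2 (0.0836), 3 (0.115) or 4 (0.0840). Bhlhe40 also lost it with uncorrected values (0.149) and with no filter on dim probes (0.0880). The same held in a fit of all 15 arrays (0.0579) and with replicate number as a block (0.0563).

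The remaining members did not pass in heart. Usp2 was bright, at 919, 1424, 1586 and 1152 in the mutant hearts, against 1415, 1892, 2038 and 2058 in the wild-type hearts. Only the mutant values of 1424 and 1586 reached the wild-type range, and the change was -0.55 ± 0.17 (adjusted p = 0.134). The other 2 Usp2 probes, above background in every heart, stood at -0.03 and -0.30 (adjusted p = 0.949 and 0.234). The bright Tef probe read 430.0, 434, 453 and 566 in the mutant hearts, against 598, 503, 615 and 572 in the wild-type hearts, with a change of -0.28 ± 0.11 (adjusted p = 0.259). The dimmer Tef probe stood at -0.03 ± 0.20 and Hlf at -0.12 ± 0.13.

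The 2 Noct probes differed in heart. The brighter one (ILMN_1255422) read 328, 285, 93.7 and 326 in the mutant hearts, against 387, 90.1, 362 and 310.5 in the wild-type hearts. Mutant heart 3 and wild-type heart 2 were far below the rest of their groups. The dimmer probe (ILMN_2591440) read 64.0 and 57.6 in these 2 hearts, within the 52.3 to 75.1 of the mutant and 41.8 to 62.4 of the wild-type hearts. The changes were -0.11 ± 0.43 and 0.16 ± 0.12 (adjusted p = 0.937 and 0.566).

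**Figure D2:**
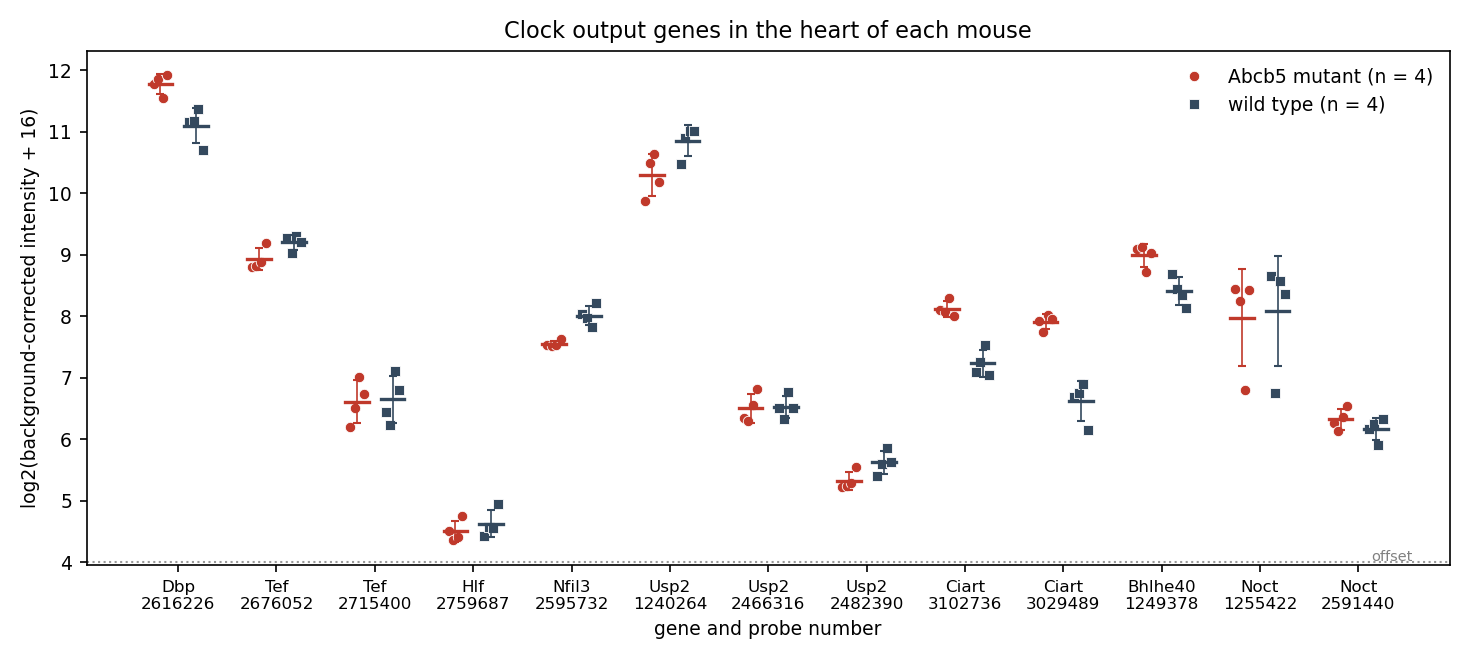
Log2 of background-corrected intensity plus 16 (vertical axis) for the 13 member probes above background in heart (horizontal axis, gene and probe number). Points are single mice, with 4 mutant hearts in red left of 4 wild-type hearts in dark grey, bars are means with SD, and the dotted line is the level of the added 16. The genotypes separate for Dbp, Nfil3, both Ciart probes and Bhlhe40, and 1 low heart stands out in each genotype for the brighter Noct probe.

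Whether the genotype difference was the same in both tissues was tested by subtracting the heart change from the liver change in 1 model of all 15 arrays, in which mouse was a random block. Of the 10 member probes above background in both tissues 2 passed, where 2.17% of 11426 probes passed. Both were positive, as were 1.09% of all probes. They were Usp2, with 2.39 in liver and -0.55 in heart (difference 2.94 ± 0.26, adjusted p = 2.44e-05), and Tef, with 1.20 in liver and -0.28 in heart (difference 1.48 ± 0.24, adjusted p = 0.00620). Both kept their calls without any single mouse. Dbp stood at 2.44 in liver and 0.67 in heart, a difference of 1.77 ± 0.52 (adjusted p = 0.0906). It was 2.28 without wild-type mouse 4 (adjusted p = 0.0186). No other single omission passed, and single omissions gave 1.40 to 2.28. The tissues were scaled apart, which this difference does not undo, and the weaker signal over background in liver shrinks dim probes there more than in heart.

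Ciart was alone in passing the genotype test in the same direction in both tissues. Of the 11426 probes above background in both, 2 (0.0175%) did so, and these were its 2 probes. ILMN_3102736 entered the liver test only through the mutant livers. The liver calls of both probes were lost with uncorrected values, with no filter on dim probes and without several single livers. Their liver changes of 0.97 and 0.91 and heart changes of 1.29 and 0.88 differed by -0.32 ± 0.20 and 0.03 ± 0.18 (adjusted p = 0.449 and 0.961). For these differences the dim liver signal matters: with an added 50 in place of 16 they were -0.60 (adjusted p = 0.0235) and -0.35 (adjusted p = 0.147), and with uncorrected values both passed, at -1.24 (adjusted p = 0.00879) and -0.75 (adjusted p = 0.0150). Including Dbp and Nfil3, the arrays of 4 of the 10 member probes were apart in the same direction in both tissues, against 0.683% of all probes. The same limit holds there for ILMN_3102736. The livers and hearts came largely from the same mice and are not independent. In bulk tissue, fewer cells of a type and less RNA per cell cannot be told apart.

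**Figure D3:**
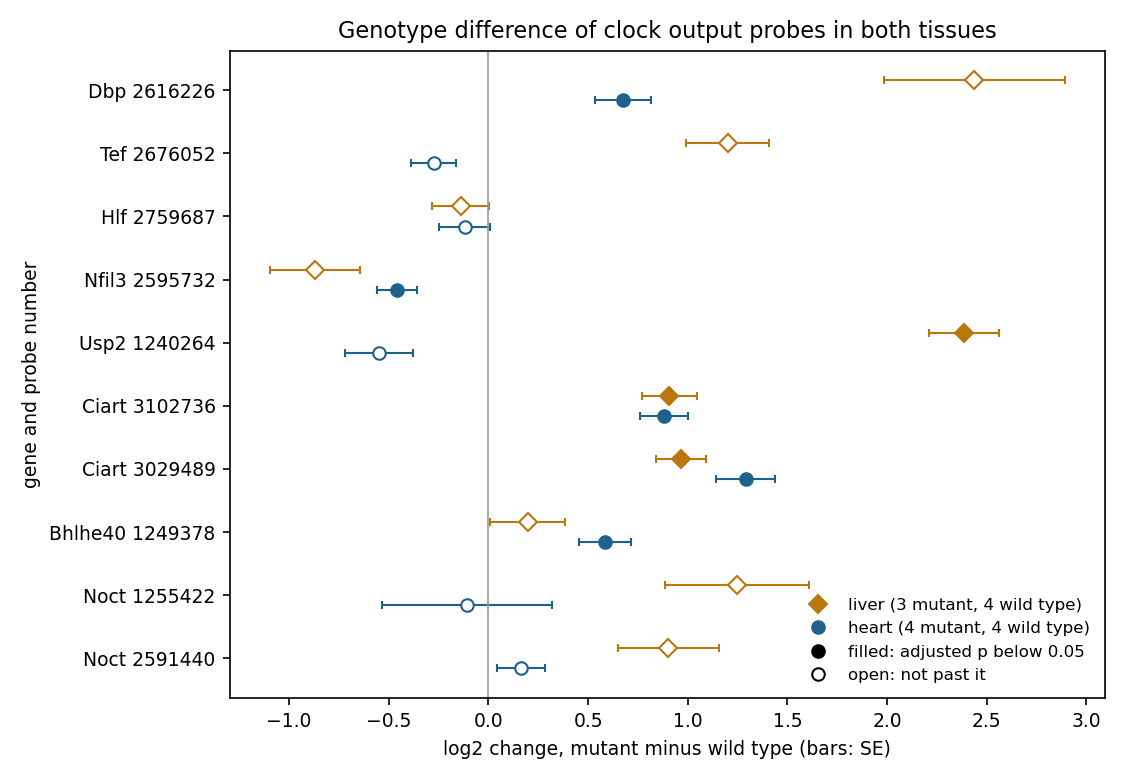
Log2 change, mutant minus wild type, with SE (horizontal axis) of the 10 member probes tested in both tissues (vertical axis, gene and probe number). Gold diamonds are liver (3 mutant and 4 wild-type), blue circles are heart (4 and 4), and filled symbols passed the test. Ciart is filled in both tissues, and Usp2 and Tef lie on opposite sides of 0.

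Among the wild-type mice Dbp and Nfil3 also ran in opposite orders. Among the 4 wild-type livers, the order of mice from low to high Dbp (1, 2, 3, 4) was the order from high to low Nfil3, and among the 4 wild-type hearts the same held for another order of mice (4, 1, 2, 3). Wild-type mouse 4 thus had the highest Dbp of its group in liver (665) and the lowest in heart (1651). In the same livers Bhlhe40 and the brighter Noct probe also followed the order of Dbp, with 523 and 261 in wild-type liver 4 and 328 and 136 in wild-type liver 1. The mutant mice did not keep this order. Mutant heart 4 had both the highest Dbp (3848) and the highest Nfil3 (180.0) of its group, and mutant liver 3 had more of both (1558 and 423) than mutant liver 1 (1332 and 357). On the log2 scale the mutant mice varied less than the wild-type mice in both genes and both tissues. The SD of Dbp was 0.15 in mutant and 1.12 in wild-type livers, and 0.16 in mutant and 0.28 in wild-type hearts. As intensities the SDs of Dbp in heart were close (387 in mutant and 405 in wild type). These spreads rest on few mice and were not tested.

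**Figure D4:**
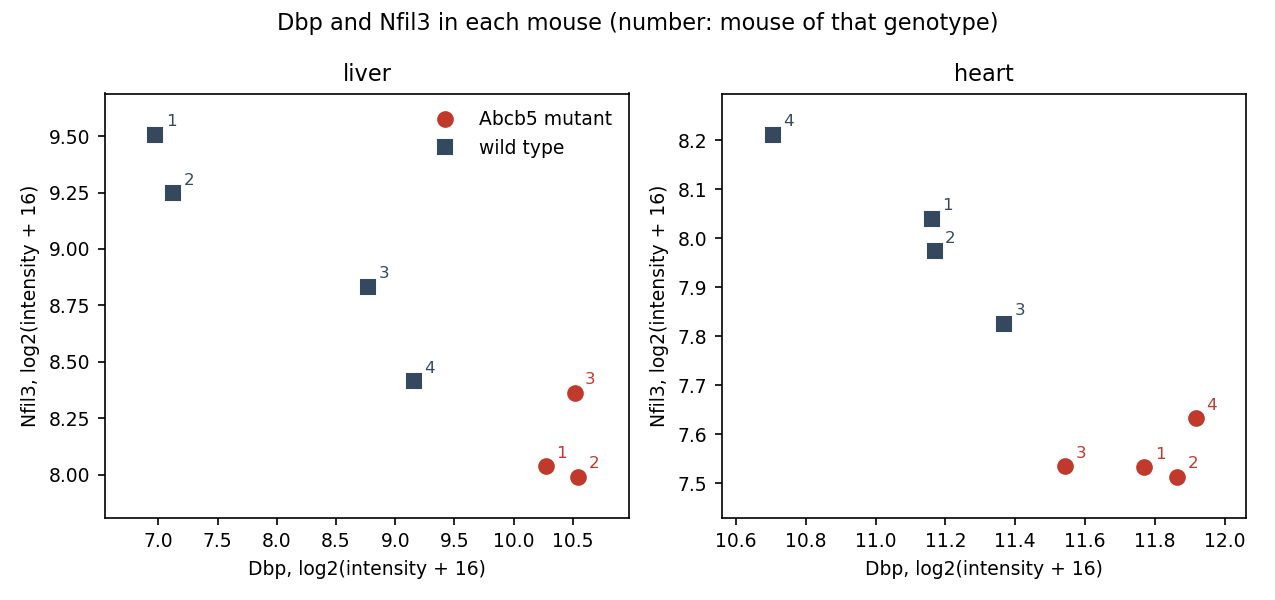
Nfil3 (vertical axis) against Dbp (horizontal axis), both as log2 of background-corrected intensity plus 16, in liver (left) and heart (right). Red circles are mutant and dark squares wild-type mice, numbered within their genotype. Wild-type points run from high Nfil3 and low Dbp to low Nfil3 and high Dbp, from mouse 1 to 4 in liver and from mouse 4 to 3 in heart, and mutant points sit at the end with high Dbp.

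After each group's mean was subtracted, the genes most like Dbp over the 15 arrays were Zbtb7c, Aaas, Gnpda1, Golga4 and Exoc2 (Pearson r = 0.90, 0.89, 0.89, 0.88 and 0.88). None of these 5 passed the genotype test in either tissue, and their smallest limma adjusted p was 0.268 (Golga4 in heart). Among the members, Bhlhe40 stood at r = 0.78, Noct at 0.74 and 0.54, Tef at 0.51, Ciart at 0.42 and 0.41, Usp2 at 0.24, Hlf at -0.53 and Nfil3 at -0.88. The Noct probe at 0.74 had r = 0.90 over the liver arrays and -0.50 over the heart arrays. Dbp varied most in liver, and the 5 genes had r = 0.93 to 0.95 over the 7 liver arrays. Over the 8 heart arrays Aaas stood at 0.81, Zbtb7c at 0.69, Gnpda1 at 0.66, Golga4 at 0.38 and Exoc2 at 0.26. These correlations describe these arrays, which share mice and tissues, and carry no test.

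The core loop that drives these outputs differed between the tissues. Of 13 core clock genes listed, 10 were measured in each tissue. In liver limma called 0 of the 10 (7 had an unadjusted p below 0.05, as did 11.4% of all probes in liver and 15.7% in heart), with Per2 at 1.23 ± 0.24 (adjusted p = 0.0972), Per3 at 0.68 ± 0.14, Arntl, which encodes BMAL1, at -0.90 ± 0.21 and Cry2 at 0.52 ± 0.17. The 7 include a gene above background on 0 mutant and 4 wild-type livers, which entered the test only through the wild-type livers. Per3 was above background on 3 mutant and 2 wild-type livers, so it reached the 3 arrays needed only with the mutant livers. In heart 2 of the 10 rose, where 1.98% of 18514 probes passed. They were Nr1d1, which encodes REV-ERB alpha, by 1.30 ± 0.17 (adjusted p = 0.00248) and Clock by 0.47 ± 0.10 (adjusted p = 0.0296). Per2 stood at -0.44 ± 0.12 and Per3 at -0.38 ± 0.13. Nr1d1 lost its call with uncorrected values (adjusted p = 0.0670). The Clock call was lost without each single heart other than mutant heart 3 (adjusted p = 0.0519 to 0.0865). Without wild-type liver 4 Per2 stood at 1.40 in liver (adjusted p = 0.0390), without wild-type liver 3 Arntl stood at -1.11 (adjusted p = 0.0382), and without mutant heart 4 Per2 stood at -0.53 in heart (adjusted p = 0.0476). No other single omission passed for these. Single omissions gave 1.05 to 1.40 for Per2 and -1.11 to -0.78 for Arntl in liver, and -0.53 to -0.35 for Per2 in heart. The median change of the 10 was 0.35 in liver and 0.04 in heart, against -0.00 and 0.01 for all probes.

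The liver-minus-heart test also passed for 4 core genes, where 2.17% of 11426 probes passed. Per2 (1.68 ± 0.28, adjusted p = 0.00620) and Per3 (1.06 ± 0.19, adjusted p = 0.0110) differed in the direction of Usp2 and Tef. Per3 entered this test only with the mutant livers, and its call is given with that limit. Arntl (-1.21 ± 0.27, adjusted p = 0.0287) and Nr1d1 (-1.17 ± 0.27, adjusted p = 0.0348) differed the other way. Without mutant mouse 1, 2 or 3 or wild-type mouse 1 or 4, Arntl (adjusted p = 0.0704, 0.104, 0.0739, 0.0922 and 0.0660) and Nr1d1 (0.0947, 0.0724, 0.126, 0.112 and 0.0922) lost their calls. Nr1d1 also lost it with mouse as a fixed block (-1.29, adjusted p = 0.0576), and with uncorrected values Arntl (-0.35, adjusted p = 0.0927) and Per3 (0.63, adjusted p = 0.0833) did.

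**Figure D5:**
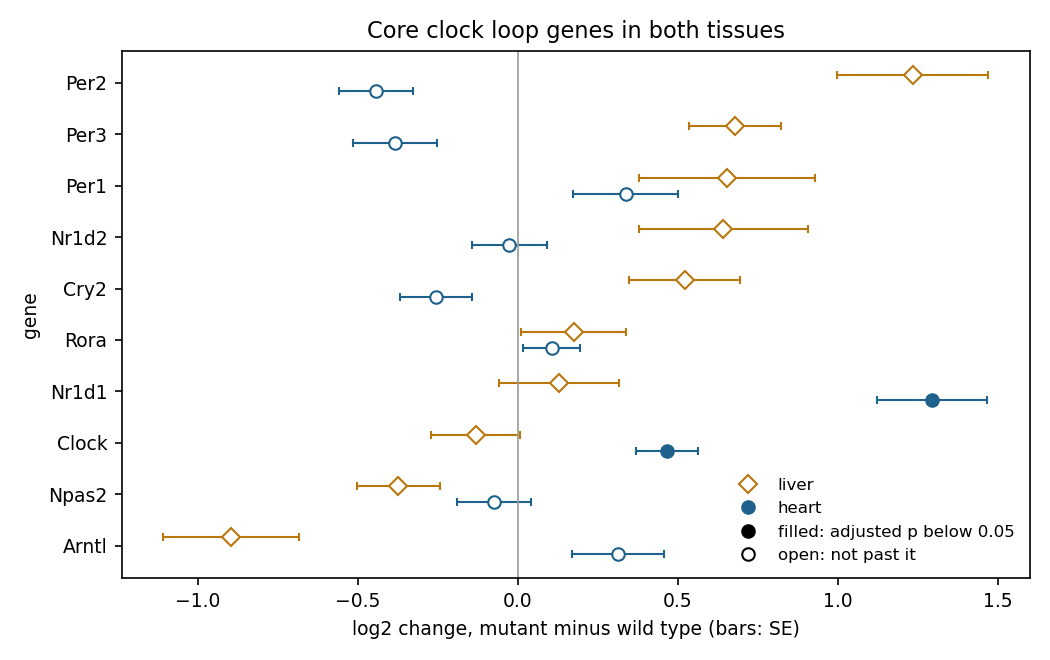
Log2 change, mutant minus wild type, with SE (horizontal axis) of the 10 core clock genes measured (vertical axis). Gold diamonds are liver, blue circles are heart, and filled symbols passed the test. Per2 and Per3 lie right of 0 in liver (1.23 and 0.68) and left of it in heart (-0.44 and -0.38), and Nr1d1 and Clock are filled in heart.

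Genes reported in mouse liver as targets of the PAR bZIP factors were mostly higher by value in the mutant livers. Of 11 listed, 8 were measured in liver, 1 rose and 7 did not pass, where 0.100% of all probes passed. Of the 8 changes 7 were positive, and the median was 0.48, against -0.00 for all probes. An unadjusted p below 0.05 was found for 4 of the 8, against 11.4% of all probes. The positive changes go down to 0.01. They include Cyp2b9, which was tested only through the mutant livers. Alas1, which encodes the first enzyme of heme synthesis, rose by 2.41 ± 0.24, with means of 3612 in mutant and 789 in wild-type livers (adjusted p = 0.00356). With no filter on dim probes the Alas1 call was lost (adjusted p = 0.111). The fatty acid hydroxylase Cyp4a14 stood at 2.51 ± 0.50 (adjusted p = 0.113), and 2.99 without wild-type liver 4 (adjusted p = 0.0115). No other single omission passed for it, and single omissions gave 2.08 to 2.99. Cyp2b9 was above background on all 3 mutant and 0 of 4 wild-type livers, with mean intensities of 163 and 110.2. Its mutant level was at least 2.52-fold higher than the lowest signal above background. The mutant-minus-wild-type change was 1.50 ± 0.42 (adjusted p = 0.227), and it fell to 0.77 without mutant liver 1 (adjusted p = 0.0415). The 2.52-fold bound includes that liver. Cyp2a5 stood at 0.74 ± 0.25 (adjusted p = 0.300). In heart limma called 0 of the 4 measured (0 with an unadjusted p below 0.05), with Alas1 at 0.21 ± 0.11 (adjusted p = 0.387), and the liver-minus-heart difference of Alas1 was 2.20 ± 0.28 (adjusted p = 0.000701).

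Other rhythmic genes gave 1 call in liver and 2 in heart, where 0.100% and 1.98% of all probes passed. Of 11 measured output genes in liver, Id2, an inhibitor of basic helix-loop-helix factors, fell by 0.87 ± 0.13 (adjusted p = 0.0322), and 10 did not pass, Elovl3, a fatty acid elongase, among them (-0.95 ± 0.15, adjusted p = 0.0555). The Id2 call was lost without mutant liver 2 or 3 or wild-type liver 1 or 3 (adjusted p = 0.131, 0.108, 0.122 and 0.0924). It was also lost with no filter on dim probes (0.0898) and with replicate number as a block (0.0673). Elovl3 stood at -1.06 without wild-type liver 4 (adjusted p = 0.0168). No other single omission passed for Elovl3, and single omissions gave -1.06 to -0.85. Of 11 in heart, Cdkn1a, which encodes the cell-cycle inhibitor p21, rose by 1.31 ± 0.21 (adjusted p = 0.00777, or 0.0998 with uncorrected values) and Dgat2, an enzyme of triglyceride synthesis, fell by 0.64 ± 0.14 (adjusted p = 0.0357), a call lost without each single heart (adjusted p = 0.0517 to 0.105). The liver-minus-heart test passed for 4 of these genes, where 2.17% of all probes passed. Cdkn1a stood at -1.22 ± 0.37 in liver (adjusted p = 0.250) and differed by -2.54 ± 0.46 (adjusted p = 0.0110), a call lost without mutant mouse 2 or 3 (0.0515 and 0.0571). Id2 differed by -1.08 ± 0.19 (adjusted p = 0.00822, or 0.0712 with uncorrected values) and Dgat2 by 0.98 ± 0.20 (adjusted p = 0.0155). Pik3r1, a subunit of phosphoinositide 3-kinase, differed by 1.13 ± 0.24 (adjusted p = 0.0228), a call lost without mutant mouse 2 or wild-type mouse 1, 2 or 3 (0.0688, 0.0564, 0.0576 and 0.0559). Of the genes that act on PER and CRY proteins, limma called 0 of 5 in liver and 0 of 6 in heart (2 and 2 with an unadjusted p below 0.05), with medians of -0.09 and -0.16. The kinase gene Gsk3b differed between the tissues by 0.61 ± 0.15 (adjusted p = 0.0453), a call lost without each single mouse (0.0503 to 0.113). Of the temperature-responsive rhythmic genes it called 0 of 5 in each tissue (1 and 3 with an unadjusted p below 0.05), with Hsph1, a heat-shock protein, at 0.57 ± 0.23 in liver and 0.92 ± 0.26 in heart.

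Markers of other cells moved with the genotype in heart, where 1.98% of all probes passed. Of 4 erythroid markers 3 fell (log2 changes of -2.14 for Alas2, -3.06 for Hbb-bt and -1.76 for Slc4a1), and the summed intensity of the 4 over background was 25543.9 to 30272 in mutant and 36897 to 73789 in wild-type hearts. Of 4 fibroblast markers 2 rose (Col3a1 by 0.81 and Col1a1 by 0.74). The brightest of the 4, Dcn, stood at -0.27 (adjusted p = 0.228), and the sums were 5117 to 5588 in mutant and 5828 to 7291 in wild-type hearts. The 4 endothelial markers were all positive with none called (3 with an unadjusted p below 0.05), and their sums were 1102 to 1282 in mutant and 913 to 1062 in wild-type hearts. The neutrophil markers S100a8 and S100a9 stood at -1.70 and -1.33 (adjusted p = 0.139 and 0.222, both with an unadjusted p below 0.05). Of 5 cardiomyocyte markers limma called 0 (0 with an unadjusted p below 0.05), with sums of 60796 to 74642 in mutant and 68354 to 120257 in wild-type hearts. The sum of 120257 was that of wild-type heart 4. The brightest probe of that array read 55709.9, against 23655.5 to 29793.5 on the other heart arrays. In liver limma called 0 of the 4 hepatocyte, 4 erythroid and 4 endothelial markers measured (0, 2 and 0 with an unadjusted p below 0.05). The 2 erythroid markers include Slc4a1, which was above background on 3 mutant and 0 wild-type livers. The part of these shifts in the changes of the clock output genes was not tested.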

How the data were processed

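Total RNA was measured on 1-colour Illumina bead arrays. The deposited table of the authors holds linear intensity per probe, and per the submitters' processing notes GenomeStudio 2011.1 was used. How values were normalized is not given in the sources used here. From the values, each tissue was scaled on its own: array medians were 113.1 in liver and 8.04 to 8.08 in heart. A second deposited table had 15 value columns whose names matched no sample and was not used.

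Background was taken per array as the mode of the low values, and its spread as the SD of lower values. Values were corrected with the normexp model, 16 was added and log2 taken. Values with a one-sided normal p below 0.05 against this background counted as above it, and probes above it on at least 3 arrays of a tissue were tested (11958 probes in liver, 18514 in heart). Within a tissue, mutant and wild type were compared by limma (version 3.58.1, R 4.3.3; lmFit, eBayes, Benjamini-Hochberg over all tested probes, threshold 0.05). The difference between tissues was fitted over all 15 arrays and mouse entered as a random effect through duplicateCorrelation (statmod 1.5.0). The mouse identifiers in the labels tie livers to hearts. The estimated correlation within a mouse was 0.0118, and deviations of the liver and heart of a mouse correlated at -0.04 to 0.05. Precision is limited by how many arrays there were. Each array of a tissue was a separate mouse.

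The platform annotation gave 23978 probes 1 symbol and 0 several, and 1719 were not listed. In a list, a gene was read by its brightest probe in that tissue. The members and lists were chosen with earlier results of these data known. Named are all members, up to 4 genes of smallest p per list, and the 5 genes most like Dbp. Tests were tried on simulated data. Alternatives covered the added 16, the background step, the filter, the scaling, the variance model, the replicate number as a block and leaving out each mouse.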

Additional observations from a re-analysis of the deposited data

Results flagged for a closer look

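Single samples stood apart in 4 of the 36 groups of 4 examined over the member probes, where chance sets about 1 in 20 groups apart. Mutant heart 3 (93.7, against 285 to 328 in its group) and wild-type heart 2 (90.1, against 310.5 to 387) stood apart on the brighter Noct probe. The livers of these 2 mice read 292 and 157 on that probe and were not the lowest of their groups. On Ciart, wild-type liver 4 (117, against 111 to 113) and wild-type liver 1 (109.8, against 116.0 to 116.4) stood apart on 1 probe each, near background.

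The genotype difference differed between the tissues, as liver change minus heart change, for Usp2 (2.94), Tef (1.48), Alas1 (2.20), Per2 (1.68), Per3 (1.06), Arntl (-1.21), Nr1d1 (-1.17), Cdkn1a (-2.54), Id2 (-1.08), Dgat2 (0.98), Pik3r1 (1.13) and Gsk3b (0.61). All of these passed the test of the difference itself over 11426 probes, but not all calls were stable. Gsk3b lost its call without each single mouse, and Arntl, Nr1d1, Pik3r1 and Cdkn1a lost theirs without some single mice. With uncorrected values Per3, Arntl and Id2 lost theirs.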

How the results depend on the processing

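In liver, 12 probes were called. The count was 5 with values floored at 16 without correcting background (4 in common with the 12), 0 with no filter on dim probes (2066 had an unadjusted p below 0.05), 37 with trend and robust settings, 152 in a fit of all 15 arrays, and 32 with the replicate block (7 in common). Single arrays left out gave 2 to 54. The 3 clock output probes called there became 1, 0, 7 and 7 with the floor, no filter, the fit of all arrays and the replicate block, 0 when a probe had to be above background on every array, which removed Usp2 and Ciart, and 1 to 6 without single arrays. In heart, 367 became 577 with an added 50, 130 with the floor, 604 with trend and robust settings, 574 in the fit of all arrays, 240 with the replicate block and 198 to 294 without single arrays. The 5 clock output probes became 2 with the floor, the fit of all arrays or the replicate block, 3 with no filter and 2 to 4 without single arrays. The tissue difference called 248 probes, 92 with the mouse as a fixed block (which drops mutant mouse 4), 385 with the floor and 96 to 223 without single mice, with 2 clock output probes, 4 with the floor and 2 to 3 without single mice.

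Replicate numbers did not pair the genotypes (correlations of deviations -0.04 to 0.01 in liver and -0.11 to -0.05 in heart), and the block in liver sets aside wild-type liver 4, which has no mutant of its number. Median changes of lists moved for other rhythmic genes in liver (0.30, 0.11 with the floor, 0.14 to 0.39 without single arrays), for genes acting on PER and CRY in liver (-0.09, -0.25 to 0.0057 without single arrays) and for temperature-responsive genes in heart (0.09, 0 with the floor, 0.18 on every array, 0.044 to 0.18 without single arrays). Signs turned for values near 0. Without single arrays in heart, Usp2 ILMN_2466316 lay between -0.13 and 0.052, Tef ILMN_2715400 between -0.17 and 0.12 and Noct ILMN_1255422 between -0.55 and 0.28. The liver-minus-heart difference of Hlf lay between -0.14 and 0.075 and that of Ciart ILMN_3102736 between -0.090 and 0.17 without single mice, and they were 0.058 and -0.013 with the fixed block. That of Ciart ILMN_3102736 was -0.35 with an added 50 and -0.75 with the floor. The cause of these changes was not tested.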
